A study of Mus musculus with 4 samples.

Results

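Ifi203 and Ifi211 are 2 mouse genes of the interferon-inducible p200 family, and they were followed here in SVEC endothelial cells exposed to lipopolysaccharide (LPS). Their spots were found by gene symbol in the platform annotation, which gave 4 spots of the 32448 on each array, 2 for Ifi203 (spots 1747 and 1748) and 2 for Ifi211 (spots 17463 and 17464). The 2 spots of a gene carry the same oligonucleotide, so they are repeat readings of 1 probe and not independent measurements. The pair was chosen by annotation with their LPS over control ratios on these same arrays already known, so those ratios are given as a description, with no test.

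SVEC cells are an established mouse line of endothelial cells, the cells that line vessels, and lines of this name were immortalised with a simian virus. LPS, from the outer membrane of Gram-negative bacteria, is sensed mainly through the receptor Tlr4. Amplified RNA of LPS-treated cells and of control cells was hybridised together in 2 dyes, after 4 h and after 24 h, with 2 arrays per time. LPS was in Cy5 on the first array of a time and in Cy3 on the second, and the labels of 3 arrays give a dose of 50 ng/ml. The labels mention dye reversal but no separate cultures. Each time was therefore counted as a single RNA pair, and each SD is the technical spread between 2 arrays. All values are log2 ratios relative to the median spot of the array. The direction, LPS over control, is likely rather than stated: it rests on the dyes in the labels, and all signs would turn if the ratio ran the other way. After the reversed arrays were turned, the 2 arrays correlated across genes at 0.48 at 4 h and 0.10 at 24 h. The table holds ratios and no intensities, so neither the endothelial identity of the cells nor the brightness of a spot could be checked by level.

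Proteins of the p200 family, also called HIN-200 or AIM2-like receptors, share a nucleic acid-binding HIN domain, in many members behind a pyrin domain that joins protein complexes. The founding members were found as interferon-induced genes of mouse cells, and the family is known for sensing cytosolic DNA, for regulating transcription and for slowing cell growth. Type I interferon acts through a receptor that activates a transcription factor complex, with Stat2 and Irf9 among its parts, which binds the interferon-stimulated response element in target promoters. LPS can reach this pathway through interferon beta made downstream of Tlr4. The family is best studied in leukocytes, and less in endothelium.

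The genes of the family lie side by side on chromosome 1 in RefSeq (GRCm38.p6). In that order Ifi211, Ifi203 and Ifi202b are consecutive entries, and Mndal comes shortly before them and Ifi205 shortly after. The promoter stretches of both genes and of the relative closest to each are shown because they print the likeness within the family next to the one element that an interferon response can use. The 10 capitals mark a match to GAAANNGAAA, the core of the response element, on the gene's own strand, and each stretch runs 5′ to 3′ over 100 bases, from RefSeq, GRCm38.p6. Ifi203 is at chr1:173942473-173942572, Mndal at chr1:173880169-173880268, Ifi211 at chr1:173913029-173913128 and Ifi205 at chr1:174031835-174031934, all on the minus strand.
Ifi203: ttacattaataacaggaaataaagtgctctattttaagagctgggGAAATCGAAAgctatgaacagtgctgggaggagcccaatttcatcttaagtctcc
Mndal: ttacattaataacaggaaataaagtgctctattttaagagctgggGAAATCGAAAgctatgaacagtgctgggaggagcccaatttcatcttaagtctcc
Ifi211: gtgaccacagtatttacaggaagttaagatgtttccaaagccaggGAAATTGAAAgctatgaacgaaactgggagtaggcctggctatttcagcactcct
Ifi205: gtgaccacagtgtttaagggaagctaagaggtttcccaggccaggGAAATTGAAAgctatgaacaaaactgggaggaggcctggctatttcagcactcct

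The Ifi203 and Mndal stretches were identical at 100 of 100 bases. Those of Ifi211 and Ifi205 were identical at 91, while Ifi203 and Ifi211 shared 49. The core began 35 bases before the start in Ifi203, at the second of its 2 listed starts, and 37 bases before it in Ifi211. Its middle letters fell into 2 forms, GAAATCGAAA in 7 family genes including Ifi203, and GAAATTGAAA in Ifi211 and Ifi205. The core, searched on both strands in windows from 250 bases before to 50 after the start, was held by 9 of the 12 family genes with a window and by 3.99% of all 27025 genes with one. Some family promoters are near copies of each other and others are not, so the 9 cannot be counted as independent. The gamma-activated site TTCNNNGAA was held by 1 of the 12, Ifi202b, and by 9.55% of all genes. The NF-kB form GGGNNTTTCC was in none of the 12 and in 1.89% of all genes. No 2 of these motifs overlapped in a family window. A match is a description and not a working site, and an absent one says only that the letters are not in the window.

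**Figure D1:**
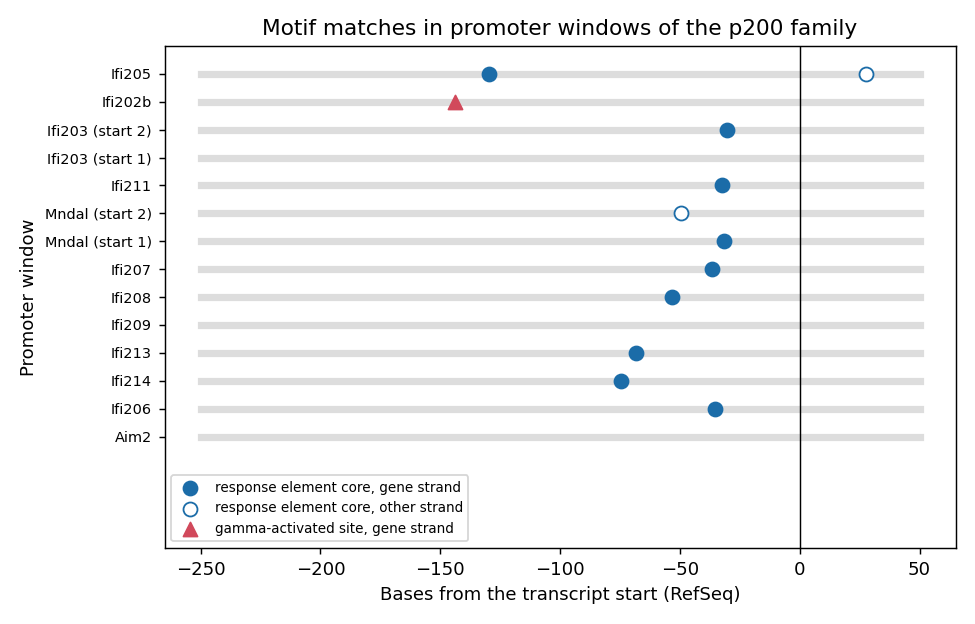
Positions of motif matches in 14 promoter windows of 12 p200 family genes, with bases from the RefSeq transcript start on the x axis and a row per window, in chromosome order from bottom to top. Filled circles are response element cores on the gene's strand, open circles cores on the other strand, and the triangle is a gamma-activated site; the cores of Ifi203 (second start) and Ifi211 lie 35 and 37 bases before the start.

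What a probe reports depends on likeness between transcripts, which the promoter stretches do not show. The platform annotation names 1 gene per spot, but RefSeq lists Mndal and Ifi203b among the older names of Ifi203, and Mnda and Ifi205b among those of Ifi211. An oligonucleotide of Ifi203 may also bind Mndal transcripts, and one of Ifi211 those of Ifi205, but no transcripts were compared. The probe sequences were not analysed here, so cross-hybridisation within the family was not tested, and each value is that of a probe named for the gene. For Ifi211 the doubt goes further: the source sequence that the annotation pairs with its spots may be that of Ifi205 itself. This was not settled here, so the values given for Ifi211 may be those of Ifi205.

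The probe of Ifi203 lay above 0 on all 4 arrays. At 4 h, spot 1747 read 0.79 (LPS in Cy5) and 0.89 (LPS in Cy3), and spot 1748 read 0.79 and 0.15. At 24 h, spot 1747 read 1.93 and 0.96, and spot 1748 read 1.63 and 1.08. The lowest of the 4 readings at 24 h, 0.96, was above the highest of the 4 at 4 h, 0.89. That gap is smaller than the median difference between repeat spots on each array, 0.20 to 0.27. How many genes show such a gap was not counted. Averaged over spots, Ifi203 was at 0.65 ± 0.19 (SD, 2 arrays) at 4 h, or 1.57-fold, and at 1.40 ± 0.54 at 24 h, or 2.64-fold.

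The probe of Ifi211 also lay above 0 on all 4 arrays, at much the same height at both times. At 4 h, spot 17463 read 0.88 (LPS in Cy5) and 1.16 (LPS in Cy3), and spot 17464 read 1.37 and 0.85. At 24 h, spot 17463 read 1.23 and 0.49, and spot 17464 read 1.12 and 0.74. The readings of the times overlap. The means were 1.06 ± 0.09 at 4 h, or 2.09-fold, and 0.90 ± 0.40 at 24 h, or 1.86-fold. A value above 0 on all 4 arrays was found for 11.9% of the 11138 named genes.

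**Figure D2:**
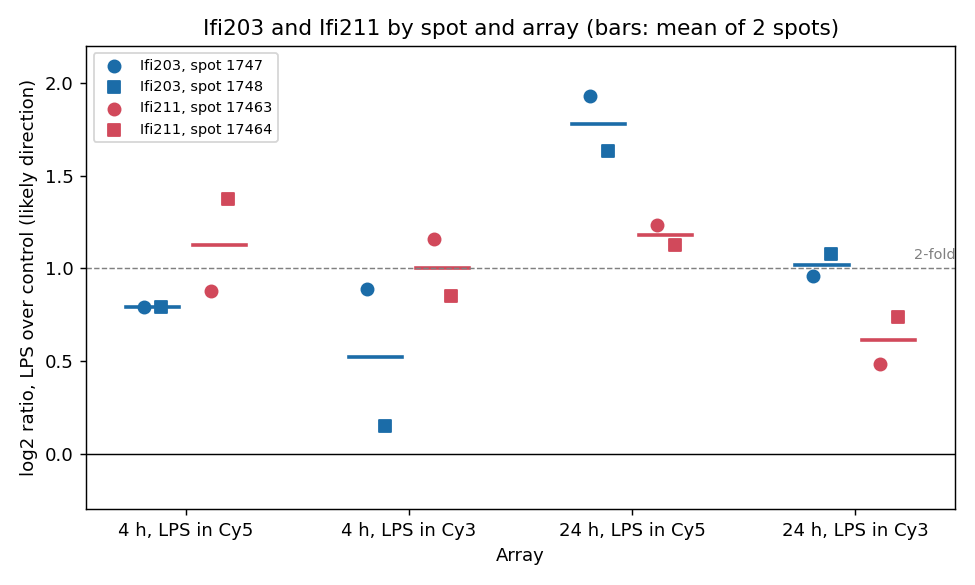
Log2 ratio of LPS over control (likely direction) for each of the 4 spots, by array; circles and squares are the 2 spots of a gene, bars their mean, and the dashed line marks 2-fold. All 16 readings lie above 0, between 0.15 and 1.93, with Ifi203 above Ifi211 on both 24 h arrays and below it on both 4 h arrays.

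The genes were read against a 2-fold rule, under which a gene counts as higher when its mean is at least 1 and each array is at least 1.5-fold the same way. Ifi211 met the rule at 4 h, as did 8.74% of all genes, and missed it at 24 h, where its mean fell short of 1. Ifi203 missed it at 4 h and met it at 24 h, as did 1.68% of all genes. By rank of the mean, 18.0% of all genes were above Ifi203 at 4 h and 1.66% at 24 h, while 11.0% and 4.57% were above Ifi211. Ifi211 lay close to the limit at both times, and without the reversed 24 h array it was at 1.18 at 24 h, past 2-fold. These shares were part of what was known when the genes were picked, and nothing is read from them beyond the position.

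**Figure D3:**
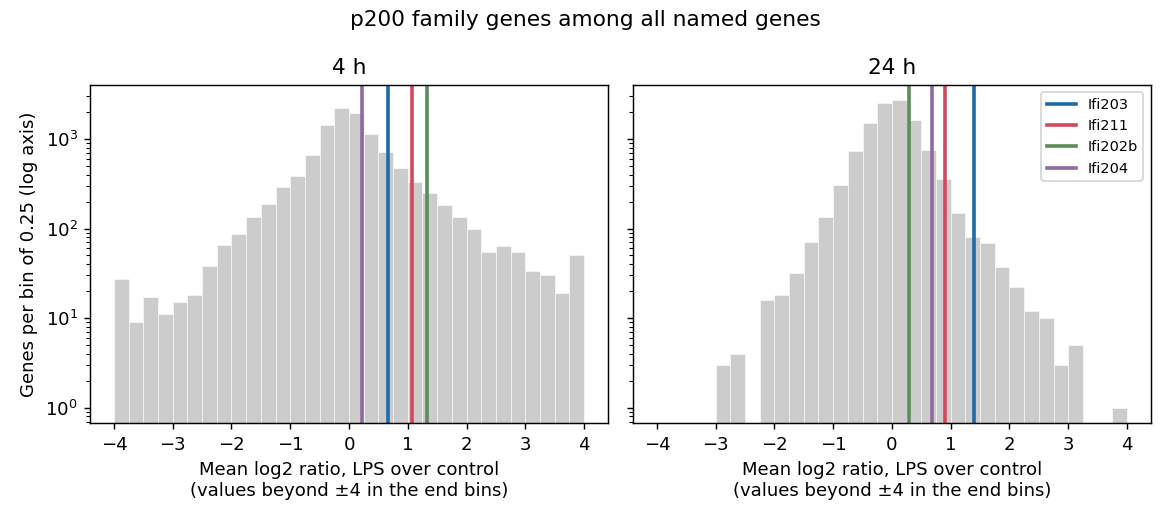
Number of named genes (log axis) by mean log2 ratio of LPS over control at 4 h and 24 h, in bins of 0.25, with lines at the 4 measured p200 family genes; 53 genes at 4 h and 1 at 24 h lie beyond the axis and are in the end bins. All 4 lines lie to the right of 0, and the spread of all genes is wider at 4 h than at 24 h.

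From 4 h to 24 h the mean of Ifi203 moved by 0.74 ± 0.57 and that of Ifi211 by -0.17 ± 0.41, where the error combines the SDs of both times. Between arrays of the same dye orientation, Ifi203 moved by 0.99 with LPS in Cy5 and by 0.50 with LPS in Cy3, and Ifi211 by 0.05 and -0.39. Neither met the rule for a difference between times, which asks for 1 and for no overlap between the arrays of the times; 8.23% of all genes met it upward and 9.99% downward. Whether both times share control RNA is not given in the sources used here.

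Compared within each array, where the choice of centre cancels, Ifi211 was above Ifi203 at 4 h and below it at 24 h. Ifi203 minus Ifi211 was -0.34 with LPS in Cy5 and -0.48 with LPS in Cy3 at 4 h, and 0.60 and 0.40 at 24 h. The spots of the genes did not overlap on 3 of the 4 arrays. How often other pairs of genes lie apart in this way was not counted. On the 4 h array with LPS in Cy5 the gap was small, from Ifi203 at 0.79 to Ifi211 at 0.88. The median difference between repeat spots on that array was 0.20. On the reversed 4 h array the spots overlapped, with Ifi203 at 0.15 and 0.89 and Ifi211 at 0.85 and 1.16. The mean of the contrast was -0.41 ± 0.10 at 4 h and 0.50 ± 0.14 at 24 h. The change was 0.91 ± 0.18, where the error combines the SDs of both times. Between arrays of the same dye orientation the change was 0.94 with LPS in Cy5 and 0.89 with LPS in Cy3 (SD 0.036). This contrast was drawn up after the values had been seen, it compares 1 probe with another, and it was not tested.

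The repeat spots show how exact a reading is. On the reversed 4 h array the spots of Ifi203 differed by 0.74, more than did 79.1% of 12172 neighbouring spot pairs of the array, whose median difference was 0.27. On the 4 h array with LPS in Cy5 they were equal. The spots of Ifi211 differed by 0.49 there, more than 74.6% of pairs, and by 0.11 on the 24 h array with LPS in Cy5. At 24 h the array with LPS in Cy5 gave the higher reading at all 4 spots, by 0.76 on average for Ifi203 and 0.57 for Ifi211. Across all genes 44.6% leaned that way at 24 h, with a median of -0.076. The part of the dye in this lean was not tested; it cancels in the mean of both arrays.

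Of the 14 genes in the family list, 4 were measured, by 6 oligonucleotides on 12 spots. The other 2 were Ifi202b, whose protein p202 lacks the pyrin domain, and Ifi204, whose protein p204 is known for sensing DNA and for holding back cell growth. Aim2, the DNA sensor of the inflammasome, Ifi205, Mndal, Ifi207 and the rest were not analysed here. At 4 h 3 of the 6 oligonucleotides were at least 2-fold higher by the rule, against 8.85% of 12131 oligonucleotides on the array. At 24 h it was 2 of 6, against 1.8%. None was lower at either time, where 5.77% of all genes were lower at 4 h and 0.799% at 24 h. Of the 6, 4 lay above 0 on all arrays, against 11.7% of oligonucleotides. The members share sequence and were picked with these values known, so the shares are set side by side only.

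Ifi202b was the family gene with the highest 4 h readings. Its first oligonucleotide, on spots 17041 and 17042, was at 1.99 with LPS in Cy5 and 1.17 with LPS in Cy3 at 4 h, and at 1.33 and 0.79 at 24 h. The third, on spots 18987 and 18988, was at 2.15 and 1.75 at 4 h, and at 0.87 and 1.09 at 24 h. These 2 probes read alike, with means of 1.58 ± 0.58 and 1.95 ± 0.28 at 4 h and 1.06 ± 0.38 and 0.98 ± 0.15 at 24 h, lower at 24 h than at 4 h in both.

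The second oligonucleotide of Ifi202b, on spots 17963 and 17964, did not repeat. Spot 17963 read -2.08 and 4.22 at 4 h, then -5.86 and -0.11 at 24 h. In the same order its neighbour read -0.11, -0.15, -0.15 and 1.34. With it, the gene's mean was 1.33 ± 0.45 at 4 h and 0.28 ± 0.78 at 24 h, and the gene met the rule at 4 h, missed it at 24 h and met the rule for a downward difference. No single oligonucleotide of the gene met that difference rule. Without the second one, a choice made after the values were seen, the gene was at 2.07 and 1.46 at 4 h and at 1.10 and 0.94 at 24 h, with means of 1.76 ± 0.43 and 1.02 ± 0.12. It then met the 2-fold rule at both times, and its difference of -0.74 no longer met the rule. The single probe of Ifi204 was at 0.58 and -0.13 at 4 h and at 1.35 and 0.0065 at 24 h, for means of 0.23 ± 0.50 and 0.68 ± 0.95. It read higher with LPS in Cy5 at both times, by 0.71 and 1.34, and met no rule.

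**Figure D4:**
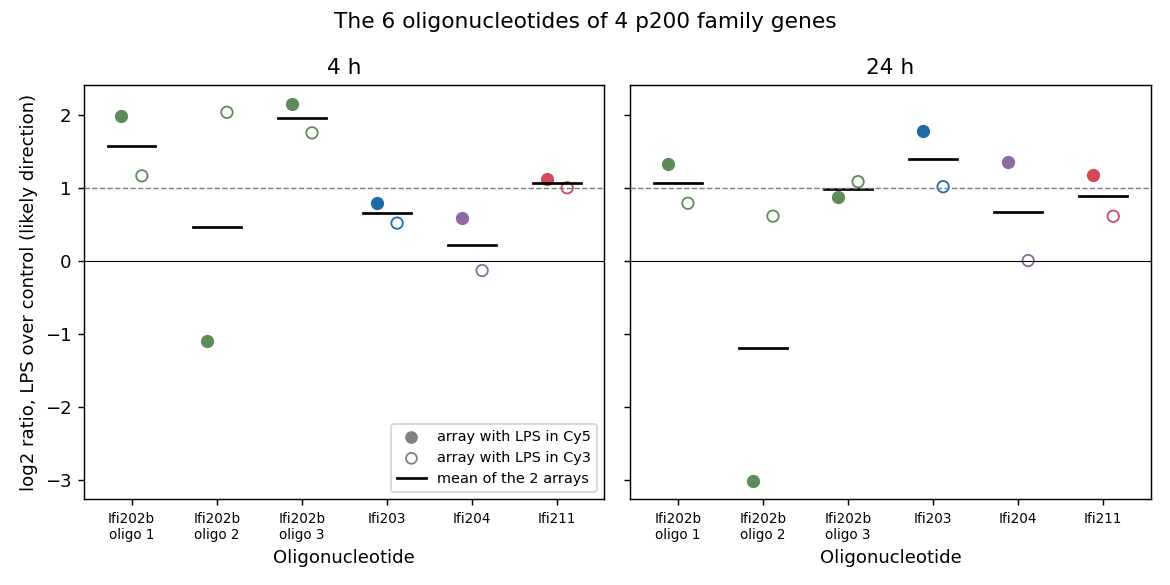
Log2 ratio of LPS over control (likely direction) for the 6 oligonucleotides of the 4 measured p200 family genes at 4 h and 24 h; filled points are arrays with LPS in Cy5, open points arrays with LPS in Cy3, black bars their mean, and the dashed line marks 2-fold. The 2 arrays lie close together for Ifi211 at 4 h (1.13 and 1.0) and far apart for the second probe of Ifi202b (-3.00 and 0.61 at 24 h).

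In order of the mean at 4 h the genes ran Ifi202b, Ifi211, Ifi203 and Ifi204, and at 24 h Ifi203, Ifi211, Ifi204 and Ifi202b. The arrays of Ifi202b and Ifi211 overlapped at 4 h, as did those of Ifi203 and Ifi204, while both arrays of Ifi211 were above both of Ifi203. At 24 h the arrays of all neighbours in that order overlapped.

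Of 20 gene entries next to the family block, 10 on each side, 3 were measured. None met the 2-fold rule at either time. Over all genes 8.74% were higher and 5.77% lower at 4 h, and 1.68% and 0.799% at 24 h. With 3 genes, nothing is read from this count. Fcer1a, a chain of the IgE receptor, was at -0.13 ± 0.26 and -0.22 ± 0.30, Ackr1, a scavenging chemokine receptor of venular endothelium, at 0.74 ± 0.75 and -0.079 ± 0.23, and the adhesion molecule gene Cadm3 at -0.77 ± 0.22 and -0.085 ± 0.48.

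Genes of the interferon pathway were then counted in their order of action. Among 11 interferon ligand and receptor genes, 1 was higher and 2 lower at 4 h, and 0 and 1 at 24 h; all were interferon alpha genes, whose near-identical copies a probe may not separate. Lower genes made up 5.77% of all at 4 h and 0.799% at 24 h. Ifnb1, interferon beta, was at -0.74 and 0.00 at 4 h and at -0.21 and 1.30 at 24 h, with no common sign. Tlr4 was at 1.94 and -0.42 at 4 h and at 0.46 and 1.58 at 24 h. Its 2 probes disagreed, with means of 0.15 and 1.37 at 4 h and of 0.23 and 1.81 at 24 h. Of 14 signalling genes, 3 were higher at each time and 0 lower, where higher genes made up 8.74% of all at 4 h and 1.68% at 24 h. Stat2 was among them at both, with arrays at 1.60 and 0.68 at 4 h and at 1.53 and 1.29 at 24 h, and so was Usp18, which dampens the receptor, at 1.69 ± 0.76 and 2.17 ± 1.23. Socs3, an inhibitor of cytokine signalling, joined them at 4 h at 4.18 ± 1.35, and Irf7, which amplifies interferon production, at 24 h. Irf9 was at -0.20 ± 0.73 and 0.48 ± 0.10.

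Of 30 measured interferon-induced genes outside the family, 10 were higher at 4 h, against 8.74% of all genes, and 12 at 24 h, against 1.68%. None of the 30 was lower, where 5.77% of all genes were lower at 4 h and 0.799% at 24 h. The median of the 30 was 0.53 and 0.71, where the median of all genes was -0.0013 and 0.022. The 4 family genes had medians of 0.86 and 0.79. At 4 h the largest were Ifi27l2a (4.87 ± 0.75), the membrane protein gene Ifitm3 (4.11 ± 2.03), the RNA sensor gene Ifih1 (3.14 ± 1.39) and the GTPase gene Irgm2 (2.47 ± 0.47). At 24 h they were the GTPase genes Ifi47 (2.54 ± 1.13) and Gbp2 (2.43 ± 0.53), the antiviral enzyme gene Rsad2 (2.21 ± 0.66) and Ifit3 (2.15 ± 0.22), which binds viral RNA complexes. Ifi203 and Ifi211 were below each of these at the time named, but these were picked as the largest of the list. Both genes were above the list median at both times.

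The pathways in which p200 proteins act were counted in the same way, against the same 8.74% of all genes higher at 4 h and 1.68% at 24 h. Of 10 cytosolic DNA sensing genes, Zbp1, a sensor of left-handed nucleic acid, was higher at 4 h (1.51 ± 0.21) and Samhd1, which breaks down nucleotides, at 24 h (1.46 ± 0.59). Sting1, the adaptor below the DNA sensor cGAS, was at 0.59 and 0.17 at 4 h and at 1.07 and -1.04 at 24 h. Of 6 inflammasome genes, Casp4, which detects LPS in the cytosol, was higher at both times (2.03 ± 1.06 and 1.55 ± 0.97), and Casp1 at 24 h (1.21 ± 0.07). Of 18 genes listed for partners of p202 and p204, 3 were higher at 4 h. They were the retinoblastoma gene Rb1 (1.31 ± 0.13), Id3 (1.47 ± 1.01) and Fos (1.87 ± 0.28, with its 2 probes at 3.74 and 0.0044). Max, listed as the partner of Myc (-1.60 ± 0.12), and Nkx2-5 (-2.50 ± 0.55), a heart transcription factor, were lower at 4 h. Of all genes 5.77% were lower at 4 h and 0.799% at 24 h. None of the 18 met the rule at 24 h.

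By the root mean square difference over the 4 arrays, the genes closest to Ifi203 were Dusp16 (0.12), Samhd1 (0.21), Nfe2l1 (0.27), the leukocyte docking molecule gene Vcam1 (0.27) and Saa-ps (0.31). Samhd1 was at 0.86 and 0.92 at 4 h and at 1.88 and 1.04 at 24 h. Those closest to Ifi211 were Necab3 (0.10), Rhot1 (0.14), Ddx56 (0.16), Preb (0.17) and Cyth3 (0.17). Ifi211 itself came 42nd for Ifi203, at 0.47. The likeness rests on 4 arrays and was searched over 11138 genes, and nothing on shared function is read from it.

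Markers of other cells were set beside these values as ratios. In the list of 16 measured leukocyte genes, the cells in which the family is best known, 0 were higher at 4 h and 1 at 24 h, with medians of -0.033 and -0.0026. The 15 endothelial genes had medians of -0.059 and -0.062, the 12 mural and fibroblast genes 0.62 and 0.12, and the 9 epithelial genes -0.17 and -0.20. Of the mural and fibroblast genes 6 were higher at 4 h and 1 at 24 h. Over all genes 8.74% were higher at 4 h and 1.68% at 24 h. At 4 h 2 endothelial genes were lower, the junction gene Cdh5 (-3.47 ± 2.12, with its 2 probes at 0.27 and -7.21) and Plvap (-1.43 ± 0.69), as were Lum (-1.40 ± 0.58) among the mural and fibroblast genes and Cldn3 (-1.66 ± 0.56) among the epithelial genes. No gene of these 4 lists was lower at 24 h. The share of all genes that were lower was 5.77% at 4 h and 0.799% at 24 h. Their part in the values of the family was not tested. The median of 25 abundant transcripts was 1.99 at 4 h and 0.11 at 24 h, so the 4 h values depend on where zero is set. Centred on those transcripts, Ifi203 was at -1.35 and Ifi211 at -0.94 at 4 h, while at 24 h they stayed above 0, at 1.28 and 0.78. Over all genes that centre gave 93 higher and 9204 lower at 4 h in place of 973 and 643, and 132 and 152 at 24 h in place of 187 and 89. The direction at 4 h therefore holds relative to the median spot only. The part of transcript abundance in it was not tested.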

How the data were processed

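Gene expression was measured on 4 two-colour arrays, 2 at 4 h and 2 at 24 h. The authors deposited log2 ratios of the dyes, each column with a median of 0; the log2 scale was read from the values. How background and dyes were corrected is not given in the sources used here. Per the labels, the second array of a time has the dyes exchanged. Each array was centred on its median, reversed arrays were turned in sign, and spots of a gene and arrays of a time were averaged (Python 3.11.15, pandas 2.3.3, numpy 2.4.6). No intensities were available to filter faint spots. The number of arrays limits the precision. With 1 RNA pair per time and members picked on these values, no test was made.

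Of 32448 spots, 24344 had 1 gene symbol, 98 several and 8006 none; only the first kind was used. RefSeq (GRCm38.p6) held the Entrez identifiers of 98.9% of them, and 0 symbols changed. Promoters matched for 12 of 14 family genes.

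The members, lists and the rule for named genes were chosen with earlier results of these data known. The rule takes all family spots, members of the pathway lists past the 2-fold rule, the 4 largest interferon-induced genes per time, the 5 nearest genes to each member, measured neighbours, and Stat2, Irf9, Irf7, Ifnb1 and Tlr4. Neighbours and Sting1 short of the rule were named after their values were seen. Alternatives were other centrings and scalings, quantile normalization, exact zeros as not measured, the median over spots, other fold limits, single spots or oligonucleotides, and each array left out. The calling code was checked on simulated data.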

Additional observations from a re-analysis of the deposited data

Results flagged for a closer look

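In 3 genes named beside the family, both arrays of one time lay above 0 and both arrays of the other below it. These differences were not tested, and the share of all genes with such a turn was not counted. Most of the genes looked at had been named for passing the 2-fold rule. All 3 also met the rule for a difference between times, as did 8.23% of all genes upward and 9.99% downward. Irf7 was 1.94 higher at 24 h than at 4 h, with arrays at -0.35 and -1.19 at 4 h and at 1.35 and 0.98 at 24 h. For Zbp1 the 24 h mean minus the 4 h mean was -1.61, with arrays going from 1.35 and 1.66 to -0.014 and -0.20. For Ifna9 it was -4.72, from 3.07 and 2.15 to -0.76 and -3.47. Centred on abundant transcripts, Zbp1 was at -1.24 and 0.24 at 4 h and no longer had a common sign, while Irf7 and Ifna9 kept theirs. Relative to the median spot, Ifi203, Ifi211, Ifi202b and Ifi204 did not show such a turn. Centred on abundant transcripts, Ifi203 and Ifi211 did. Their means were then -1.35 and -0.94 at 4 h, and 1.28 and 0.78 at 24 h.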

How the results depend on the processing

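Of 58 alternative values for the ratios of Ifi203 and Ifi211 and their difference between times, 48 lay within 1 SD of the reported one. Of the 58, 16 leave out an array, which with 2 arrays keeps them within 1 SD by construction, and 20 equal the reported value; of the other 22, 12 lay within 1 SD. Values with an array left out ranged from 0.52 to 0.79 for Ifi203 and 1.0 to 1.13 for Ifi211 at 4 h, and from 1.02 to 1.78 and 0.61 to 1.18 at 24 h. Their differences between times then ranged from 0.36 to 1.13 for Ifi203 and from -0.45 to 0.11 for Ifi211. Centring on abundant transcripts put Ifi203 at -1.35 and Ifi211 at -0.94 at 4 h, turning the sign, and their differences between times at 2.63 and 1.72. Quantile normalization gave every array the mean distribution of all 4, with a spread between that of the 4 h and 24 h arrays. It put Ifi203 at 2.13 and Ifi211 at 1.33 at 24 h, Ifi211 at 0.85 at 4 h, and their differences at 1.59 and 0.47. Scaling to one spread gave 0.97 for Ifi211 at 4 h, below the 2-fold rule. Ifi203 minus Ifi211 kept its sign at each time under every alternative run, and at 24 h was 0.80 under quantile normalization. That was largely fixed in advance. A change of centre and the median over 2 spots leave the contrast unchanged, and scaling cannot turn it within an array. Both arrays of a time already shared its sign. The kept sign is therefore no support for the contrast.

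Of the 4 measured family genes, 2 met the rule at 4 h. The number was 2 with either array left out, 3 with lower fold limits, 1 after scaling and 0 at a 3-fold limit, after quantile normalization or centring on abundant transcripts. At 24 h it was 1, and 3 without the reversed array, Ifi211 then among them, 1 without the other array, 2 with lower fold limits or quantile normalization, and 0 at a 3-fold limit; counted by oligonucleotide it was 2. Over all genes at 4 h (973 higher, 643 lower), centring on abundant transcripts gave 93 and 9204, lower fold limits 1592 and 1225, a 3-fold limit 569 and 306, and single spots 2119 and 1416. At 24 h (187 and 89), quantile normalization gave 411 and 148, lower fold limits 683 and 442, a 3-fold limit 73 and 15, no demand on single arrays 388 and 280, and single spots 528 and 286. The 89 became 144 after scaling and 152 with the abundant centre. With 1 array left out, counts ranged from 1376 to 1476 higher and 996 to 1007 lower at 4 h, and from 502 to 771 and 310 to 818 at 24 h. Without the reversed 24 h array 38.0% of calls were higher, against 67.8% with it. The causes were not tested. No paired analysis was possible because the result comes from no test; the array numbers match dye orientations across times, and matched so the differences were 0.99 and 0.50 for Ifi203, 0.05 and -0.39 for Ifi211 and 0.94 and 0.89 for their contrast. Without intensities, faint and bright spots count alike.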
